A study of Mus musculus with 4 samples.

Results

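The 10 genes described here, Mdm2, Cdkn1a, Trp53inp1, Bax, Bbc3, Phlda3, Zmat3, Aen, Eda2r and Pmaip1, are established targets of the transcription factor p53 in the mouse. They were taken by name from the PRO-seq count table of a Zfp574 depletion experiment. All 10 were found among its 12486 genes, and all 10 were among the 11853 genes whose counts were high enough to test. PRO-seq labels the 3′ end of nascent RNA while RNA polymerase extends it, so a gene's count reflects engaged polymerase rather than the amount of stored transcript. The question was whether transcription of these genes had begun to rise by 6 h after Zfp574 was removed. Counts cover each whole gene, so polymerase near the start was not told apart from polymerase further along. At that time 16 of 82 cytosolic ribosomal protein genes were lower at an adjusted p under 0.05 in edgeR, against 1.40% of all genes tested. Of the 82, 0 were higher, against 1.11%. They were taken by name and include paralogues, of which Rpl10l, Rpl7l1 and Rps27l were among the 16. These calls depended on the test. DESeq2 with its own size factors called 61 of all genes lower, where edgeR called 166. Of the 16, Rpl10 kept its call there, but Rpl11, Rps7 and Rps27l did not (adjusted p 0.705, 0.306 and 0.301 in DESeq2). Rps27l is also on the list of other p53 targets below.

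The cells were diploid mouse embryonic stem cells, grown without feeders in serum with LIF. Both groups carried the same alleles: Zfp574 tagged at its N terminus with an auxin-inducible degron (AID-Zfp574), in a clonal parental line in which an EF1a promoter drives the auxin receptor OsTir1 together with ARF16 and mCherry. The depletion group (n = 2 libraries) had 6 h in 500 µM IAA, the auxin that sends the tagged protein to the proteasome. The control group (n = 2) was the same line at 0 h, which the treatment protocol describes as untreated although its label also carries the letters IAA. The labels call the replicates biological, but give the same genotype for all libraries and name no separate clones. Effects of auxin and of Zfp574 loss cannot be told apart in this design: auxin on cells without the tag was not analysed here.

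In unstressed cells p53 is made continuously and destroyed quickly, because the ubiquitin ligase Mdm2 binds it and marks it for degradation. When ribosome assembly falters, free ribosomal proteins, Rpl5 and Rpl11 above all, bind Mdm2 and block it, so that p53 accumulates, binds its response elements and raises the transcription of genes for cell cycle arrest, apoptosis and its own feedback. Mouse embryonic stem cells are known for abundant p53 and for a p53 response to DNA damage that favours differentiation or death over a lasting arrest in G1.

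A p53 response element consists of 2 copies of a 10-base motif, each with a 4-base core that runs from C to G, separated by a short spacer. Because such elements are what makes a gene a direct p53 target, the closest match within 2000 bases of the annotated start is shown for 9 of the genes (the match of Pmaip1 is counted below but not shown), with the core bases of each copy in capitals. Sequences are from GRCm38 (mm10), written 5′ to 3′ on the strand of the gene, and the spacer was limited to 0 or 1 base.

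Trp53inp1 (chr4:11155112-11155132, plus strand, upstream of the annotated gene, 0 mismatches): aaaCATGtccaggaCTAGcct
Zmat3 (chr3:32364331-32364350, minus strand, an exon of a noncoding isoform, 0 mismatches): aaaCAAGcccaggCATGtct
Cdkn1a (chr17:29090928-29090947, plus strand, upstream, 1 mismatch): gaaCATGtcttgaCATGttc
Bax (chr7:45466574-45466593, minus strand, UTR exon, 2 mismatches): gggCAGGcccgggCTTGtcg
Eda2r (chrX:97376534-97376553, minus strand, intron, 2 mismatches): gggCAAGtccgggCCTGtgt
Aen (chr7:78895937-78895956, plus strand, UTR exon, 3 mismatches): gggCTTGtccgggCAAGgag
Bbc3 (chr7:16309486-16309505, plus strand, intron, 3 mismatches): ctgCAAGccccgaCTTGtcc
Mdm2 (chr10:117710105-117710124, minus strand, an exon of a noncoding isoform, 3 mismatches): ggtCAAGttgggaCACGtcc
Phlda3 (chr1:135767524-135767544, plus strand, intron, 4 mismatches): gtgCTGGccaaaggCATGctg

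A match with 0 mismatches was present for 2 of the 10 genes and in 0.262% of the windows of all 11844 genes with a position, and a match with at most 2 mismatches for 6 of the 10 genes and in 10.2% of all windows. How common 3 or 4 mismatches are over all genes, as shown for Aen, Bbc3, Mdm2 and Phlda3, was not counted. With spacers of up to 13 bases, a match with at most 2 mismatches was present for 8 of the 10 genes and in 50.7% of all windows. These matches describe the sequences and are not shown to be bound in these cells. Since the genes were chosen as p53 targets, their share of matches is no result of the experiment.

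The control libraries held 3298864 and 3616429 counts, and those made after depletion held 6045216 and 5670904. Genes were compared as CPM, counts scaled by TMM to a common library size, so that most genes lie close to 0 on the log2 scale. Pluripotent stem cell markers were tested for 9 of 10 genes and summed to between 4152 and 4277 CPM in every library. Most of that sum came from Esrrb (mean 1764 CPM in the controls and 1744 CPM under IAA) and Tfcp2l1 (1431 and 1495 CPM), so it says little about the weaker markers. Of these 9, only Utf1 passed the test, at 38.8 and 46.9 CPM in the controls against 28.9 and 27.4 CPM, a log2 fold change of -0.61 (adjusted p 0.00358 in edgeR) that missed the threshold in DESeq2 under its own factors (adjusted p 0.256), without control replicate 2 (-0.46) and without depletion replicate 2 (-0.57). Of the markers of fibroblasts 1 of 8 was tested (summed 1.09 to 2.85 CPM), and of those of primitive endoderm 1 of 6 (10.7 to 13.5 CPM). Of the trophoblast markers 2 of 6 were tested (31.3 to 38.6 CPM), and Tfap2c, with 24.3 and 29.2 CPM in the controls against 25.7 and 29.0 CPM under IAA, gave most of that sum. The degron acts on the protein, and transcription of Zfp574 itself stood at 24.0 and 35.5 CPM in the controls and 32.8 and 39.0 CPM after depletion, with a log2 fold change of 0.25 and an adjusted p of 0.406 in edgeR's quasi-likelihood test. Leaving out single libraries moved that value from 0.01 (without control replicate 1) to 0.57 (without control replicate 2, adjusted p 0.0293 in edgeR). Rpl10, the ribosomal protein gene that the study singled out, stood at 235 and 254 CPM in the controls and at 102 and 95.6 CPM under IAA, a log2 fold change of -1.30 (SE 0.07) with an adjusted p of 1.19e-13 in edgeR. The median of the 82 cytosolic ribosomal protein genes was -0.15, which was not set against that of genes of their length.

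None of the 10 p53 targets changed past the threshold at 6 h. At an adjusted p under 0.05 in edgeR's quasi-likelihood test, 0 of 10 were higher and 0 of 10 were lower, against 1.11% of all genes tested for higher (132 genes), 1.40% for lower (166 genes) and 2.51% for either. With a 2-fold change required as well, the count among the 10 was 0, against 0.321% of all genes. At an unadjusted p under 0.05 in edgeR, 0 were higher and 3 were lower, against 16.2% of all genes in either direction, and DESeq2 with its own size factors also called 0 after adjustment, with 0 at an unadjusted p under 0.05. In both edgeR and DESeq2, 9 of the 10 log2 fold changes were below 0, against 50.6% of all genes in edgeR, and their median in edgeR was -0.08 on the log2 scale against -0.002 for all genes tested. Both depletion libraries lay below both controls for 7 of the 10 genes, against 22.9% of all genes, and above them for 0, against 23.4%. The upper end of the 95% interval was highest for Pmaip1, at 1.17-fold, so a rise of 1.5-fold lay outside the interval of every one of these genes.

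**Figure D1:**
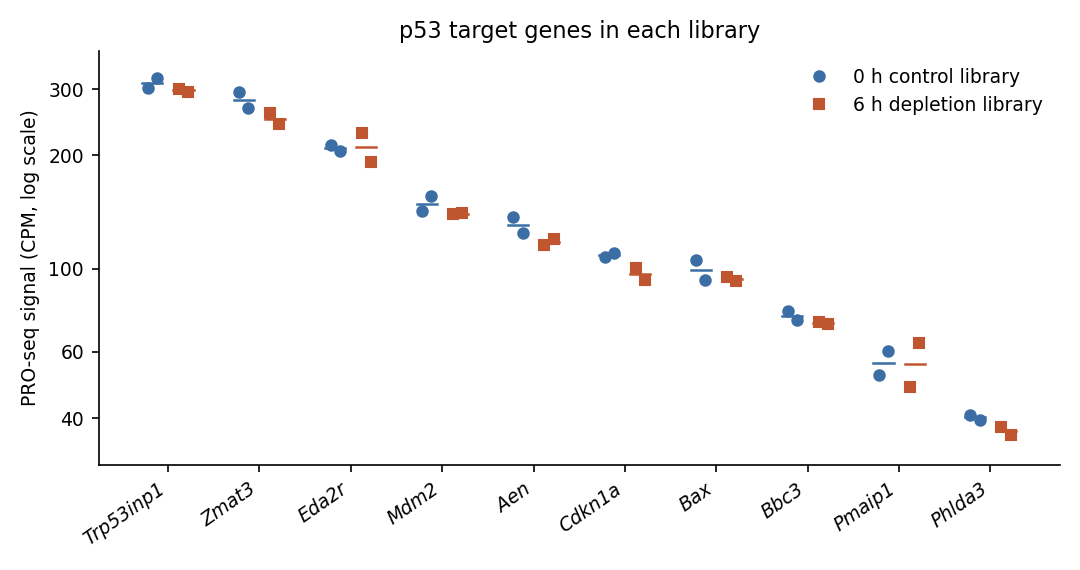
PRO-seq signal in CPM (log axis) for each of the 10 p53 target genes, with circles for the 2 control libraries, squares for the 2 depletion libraries and a short line at each group's mean. No gene has both depletion libraries above both controls, and for 7 of them both lie below.

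Mdm2 (ENSMUSG00000020184, chromosome 10, 117688875 to 117710758) encodes the ligase that destroys p53 and is itself raised by p53, which makes it the feedback arm of the pathway. Its signal was 142 and 156 CPM in the controls against 139 and 141 CPM under IAA. The depletion libraries were both just below the lower control, while the controls themselves lay farther apart than the lower control and the depletion libraries did. The log2 fold change was -0.09 (SE 0.07, 95% interval -0.23 to 0.05) with an adjusted p of 0.551 in edgeR. The interval thus reached at most 1.03-fold above the controls.

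Among the targets that restrain growth, Cdkn1a (ENSMUSG00000023067, chromosome 17, 29090976 to 29100727) encodes p21, the inhibitor of cyclin-dependent kinases through which p53 arrests the cell cycle. It stood at 108 and 110.0 CPM in the controls and at 100.5 and 93.1 CPM under IAA, so the groups did not overlap. Its log2 fold change of -0.17 (SE 0.08, 95% interval -0.33 to -0.01) was the lowest of the 10, with an unadjusted p of 0.0366 and an adjusted p of 0.265 in edgeR. Zmat3 (ENSMUSG00000027663, chromosome 3, 32334792 to 32366014), an RNA-binding zinc finger protein that regulates splicing, stood at 296 and 267 CPM in the controls and at 259.5 and 242 CPM under IAA. The groups were again separate, but the controls differed from each other by more than the lower control differed from the higher depletion library. Its log2 fold change was -0.17 (SE 0.06, 95% interval -0.29 to -0.04), and it had the smallest adjusted p of the 10, 0.163 in edgeR.

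Zmat3 was also the member whose call moved most with the settings. It was lower past the threshold without control replicate 2 (log2 fold change -0.24, adjusted p 0.0204 in edgeR), with the replicate number as a block (-0.17, adjusted p 0.0447 in edgeR), and with size factors recovered from the deposited mean signal (-0.27, adjusted p 0.00989 in edgeR). With those factors Cdkn1a (-0.27, adjusted p 0.0368 in edgeR) and Aen (-0.25, adjusted p 0.0383 in edgeR) were lower as well, while DESeq2 with the same factors called none of the 3. No setting tried called any of the 10 genes higher.

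Of the targets in cell death, Bax, Bbc3 and Pmaip1 belong to the Bcl-2 family. Bax (ENSMUSG00000003873, chromosome 7, 45461697 to 45466898), which perforates the outer mitochondrial membrane, stood at 105 and 93.1 CPM in the controls and at 95.1 and 92.7 CPM under IAA. Bbc3 (ENSMUSG00000002083, chromosome 7, 16308393 to 16318205), also known as Puma, stood at 76.9 and 72.9 CPM and then at 71.9 and 71.4 CPM. Pmaip1 (ENSMUSG00000024521), also known as Noxa, stood at 52.0 and 60.3 CPM and then at 48.4 and 63.4 CPM. The groups overlapped for Bax and Pmaip1 and differed by less than the spread of the controls for Bbc3. Their log2 fold changes were -0.07 (SE 0.08), -0.06 (SE 0.09) and -0.02 (SE 0.12), with adjusted p-values of 0.713, 0.789 and 0.972 in edgeR.

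On the log2 scale, Pmaip1 had the widest replicate spread of the 10. Its direction rested on single libraries: leaving out depletion replicate 1 gave a log2 fold change of 0.17 and leaving out depletion replicate 2 gave -0.22, neither past the threshold. The annotation places Gm45808, a gene outside the count table, on the same strand as Bax over 915 bp, so part of the Bax signal may be shared with it.

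The other targets tied to death or stress signalling did not pass the test either. Trp53inp1 (ENSMUSG00000028211, chromosome 4, 11156431 to 11174379), a p53-induced protein of stress signalling and autophagy, had the strongest signal of the 10 in CPM, at 303 and 322 in the controls against 301 and 296 under IAA. Aen (ENSMUSG00000030609, chromosome 7, 78895854 to 78911209), a nuclease that enhances apoptosis, stood at 137 and 125 CPM and then at 116 and 120.0 CPM. Phlda3 (ENSMUSG00000041801, chromosome 1, 135766119 to 135769136), which restrains Akt signalling, had the weakest signal, at 40.9 and 39.6 CPM and then at 37.8 and 36.1 CPM. In each of these genes both depletion libraries were below both controls. The log2 fold changes were -0.07 (SE 0.06) for Trp53inp1, -0.15 (SE 0.07) for Aen and -0.12 (SE 0.11) for Phlda3, with adjusted p-values of 0.609, 0.292 and 0.664 in edgeR.

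Eda2r (ENSMUSG00000034457, chromosome X, 97333840 to 97377216) encodes a receptor of the tumour necrosis factor family. It stood at 213 and 206 CPM in the controls and at 229 and 193 CPM under IAA. The depletion libraries enclosed both controls, and its log2 fold change of 0.01 (SE 0.07) was the only one above 0, with an adjusted p of 0.963 in edgeR. Eda2r also moved with single libraries, from 0.13 without depletion replicate 2 to -0.12 without depletion replicate 1, and lay at -0.02 with library totals and -0.09 with the recovered size factors.

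**Figure D2:**
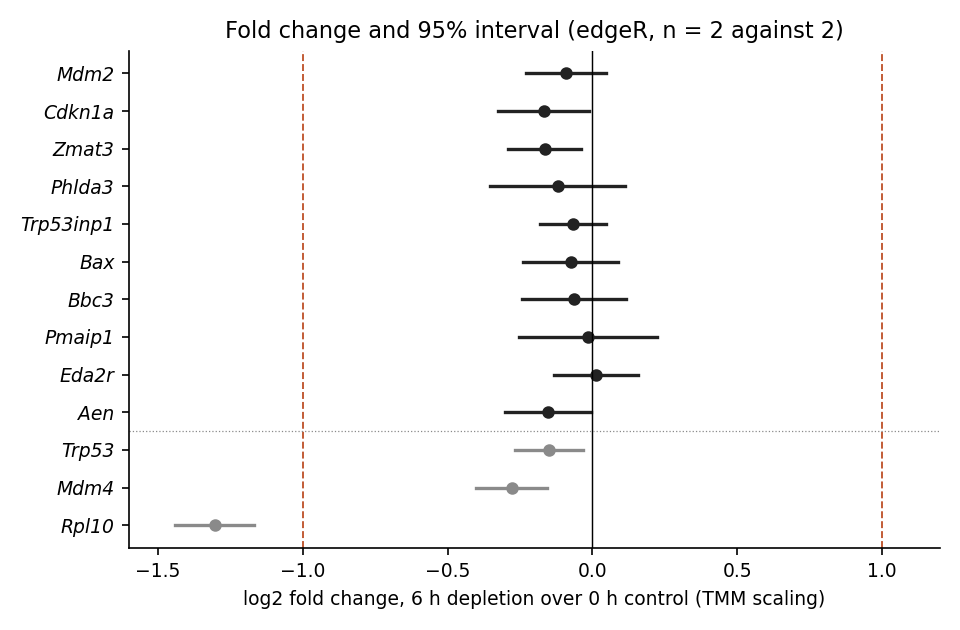
Log2 fold change (points) and 95% interval (bars) from edgeR for the 10 p53 target genes in black and for Trp53, Mdm4 and Rpl10 in grey, with dashed lines at a 2-fold change in either direction. All 10 target genes lie between -0.17 and 0.01, whereas Rpl10 lies at -1.30.

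These genes were already transcribed in the controls. Signal per kilobase of annotated gene compares genes only roughly. The counts cover genes with corrected starts, from start to end, while the lengths are those of the annotated genes. On this scale the control signal was highest for Bax, at 19.1 ± 1.65 CPM per kb (SD, n = 2), above 96.5% of the genes tested. It was lowest for Eda2r, at 4.83 ± 0.119 CPM per kb, above 82.9%. Trp53inp1 (17.4 ± 0.743), Phlda3 (13.3 ± 0.304), Cdkn1a (11.2 ± 0.174), Zmat3 (9.02 ± 0.640), Aen (8.53 ± 0.581), Pmaip1 (7.98 ± 0.837), Bbc3 (7.63 ± 0.293) and Mdm2 (6.81 ± 0.424) lay between them in that order. The control libraries overlapped between the neighbours Bax and Trp53inp1, Zmat3 and Aen, Aen and Pmaip1, and Pmaip1 and Bbc3, so these pairs had no order beyond their spread. After depletion the order of the means was the same, apart from Aen and Pmaip1, which traded places. The sum over the 10 genes was 1474 and 1451 CPM in the controls and 1398 and 1348 CPM after depletion.

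Other known p53 targets gave no rise past the threshold either. From a list of 32, 30 were tested, of which 0 were higher and 2 were lower, against 1.11% and 1.40% of all genes tested. Of the 30, 17 were below 0, against 50.6% of all genes, and the median log2 fold change was -0.05. At an unadjusted p under 0.05 in edgeR, 3 were higher and 7 lower, against 1011 and 908 of all 11853 genes. Both depletion libraries lay above both controls for 5 of the 30, against 23.4% of all genes, and below them for 12, against 22.9%. Besides Btg2, the 3 were Rrm2b, a ribonucleotide reductase subunit gene (log2 fold change 0.17, adjusted p 0.288 in edgeR), and Polk, a translesion DNA polymerase gene (0.18, adjusted p 0.282 in edgeR), both separated upward and both named after their values were seen. Ccng1, a cyclin G gene often used to read p53 activity, stood at 82.0 and 92.8 CPM in the controls and at 76.9 and 76.0 CPM under IAA, a log2 fold change of -0.20 (adjusted p 0.242 in edgeR). Sesn2, a stress-induced inhibitor of mTORC1 signalling, had -0.04 (adjusted p 0.834 in edgeR). The death receptor gene Tnfrsf10b had -0.06 and Perp, which encodes a tetraspan membrane protein, had -0.19 (adjusted p 0.794 and 0.555 in edgeR). Fas was not analysed here.

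The highest value on that list did not pass the test. It belonged to Btg2, an antiproliferative gene that is also an immediate-early gene, which stood at 54.1 and 68.2 CPM in the controls and at 83.3 and 63.7 CPM under IAA. The groups overlapped, and the log2 fold change was 0.26 (SE 0.12) with an adjusted p of 0.250 in edgeR. Without control replicate 2 it was 0.45 with an adjusted p of 0.0149 in edgeR, the only setting in which a gene of the list was called higher. Gdf15, a secreted stress cytokine, stood at 12.9 and 14.5 CPM and then at 18.6 and 13.5 CPM, a log2 fold change of 0.23 (SE 0.19) with an adjusted p of 0.602 in edgeR. Without depletion replicate 1 the value was -0.02, and without depletion replicate 2 it was 0.44, neither past the threshold.

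The 2 genes of the list that fell were Rps27l and Gtse1. Rps27l, a p53-induced gene that is itself a paralogue of the ribosomal protein gene Rps27, went from 61.6 and 70.4 CPM to 48.4 and 46.5 CPM, a log2 fold change of -0.48 (SE 0.10) with an adjusted p of 0.00540 in edgeR. Gtse1, a G2 and S phase gene whose product holds p53 down, went from 154 and 147 CPM to 121 and 125 CPM, a log2 fold change of -0.29 (SE 0.07) with an adjusted p of 0.0163 in edgeR. Neither passed in DESeq2 with its own size factors (adjusted p 0.301 for Rps27l and 0.606 for Gtse1). Rps27l also lost its call without control replicate 2, without depletion replicate 1 or without depletion replicate 2, where its log2 fold change lay between -0.51 and -0.38, and Gtse1 without control replicate 1 or either depletion replicate, where it lay between -0.32 and -0.26.

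Upstream of the targets, Trp53, the gene of p53 itself (ENSMUSG00000059552, chromosome 11, 69580359 to 69591873), stood at 329 and 349 CPM in the controls and at 315 and 296 CPM under IAA. The log2 fold change was -0.15 (SE 0.06) with an adjusted p of 0.173 in edgeR, and -0.25 with an adjusted p of 0.0132 in edgeR with the recovered size factors. Of 20 genes for p53 and its regulators, 19 were tested. Of these, 1 was lower and 1 was higher, against 1.40% and 1.11% of all genes tested. Their median log2 fold change was -0.05. Mdm4 (ENSMUSG00000054387, chromosome 1, 132959484 to 133030561), the partner of Mdm2 that masks the activation domain of p53, fell from 282 and 264 CPM to 231 and 218 CPM, a log2 fold change of -0.28 (SE 0.06) with an adjusted p of 0.00735 in edgeR. Pias1, a SUMO ligase that acts on p53 among other proteins, rose from 118 and 115 CPM to 139 and 149 CPM, a log2 fold change of 0.31 (SE 0.07) with an adjusted p of 0.0116 in edgeR.

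Both calls depended on the test. In DESeq2 with its own size factors the adjusted p was 0.252 for Mdm4 and 0.488 for Pias1, and both lost their call without depletion replicate 1 or 2, with log2 fold changes from -0.32 to -0.24 for Mdm4 and from 0.26 to 0.36 for Pias1. Pias1 also lost its call with the recovered size factors (0.21, adjusted p 0.0978 in edgeR and 0.740 in DESeq2) and once the trend on gene length was removed (0.21, adjusted p 0.144 in edgeR).

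No gene for the proteins that link ribosome assembly to Mdm2 was higher. All 15 genes of this ribosomal surveillance list were tested. Of these, 2 were lower and 0 were higher, against 1.40% and 1.11% of all genes tested. Their median log2 fold change was -0.13. Both genes called lower, Rpl11 and Rps7, are ribosomal protein genes. A fall was also seen over all cytosolic ribosomal protein genes, which had a median of -0.15, with 16 of 82 called lower. Those 82 include Rpl11, Rps7 and other genes of this list, and no comparison without the shared genes was made. Rpl5 stood at 365 and 359.7 CPM in the controls and at 331 and 327 CPM under IAA, a log2 fold change of -0.14 (SE 0.05) with an adjusted p of 0.179 in edgeR. Rpl11 fell from 159 and 139 CPM to 123 and 120.1 CPM, a log2 fold change of -0.29 (SE 0.07) with an adjusted p of 0.0261 in edgeR. Rps7, another Mdm2-binding ribosomal protein gene, fell from 215 and 209 CPM to 176 and 171 CPM, also -0.29 (SE 0.06), with an adjusted p of 0.00691 in edgeR. DESeq2 with its own size factors called neither (adjusted p 0.705 and 0.306), and both lost their call without depletion replicate 1 or 2, with values from -0.31 to -0.27. Rpl11 also lost its call without control replicate 1 (-0.19) and in DESeq2 with the recovered size factors (-0.39, adjusted p 0.0519).

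**Figure D3:**
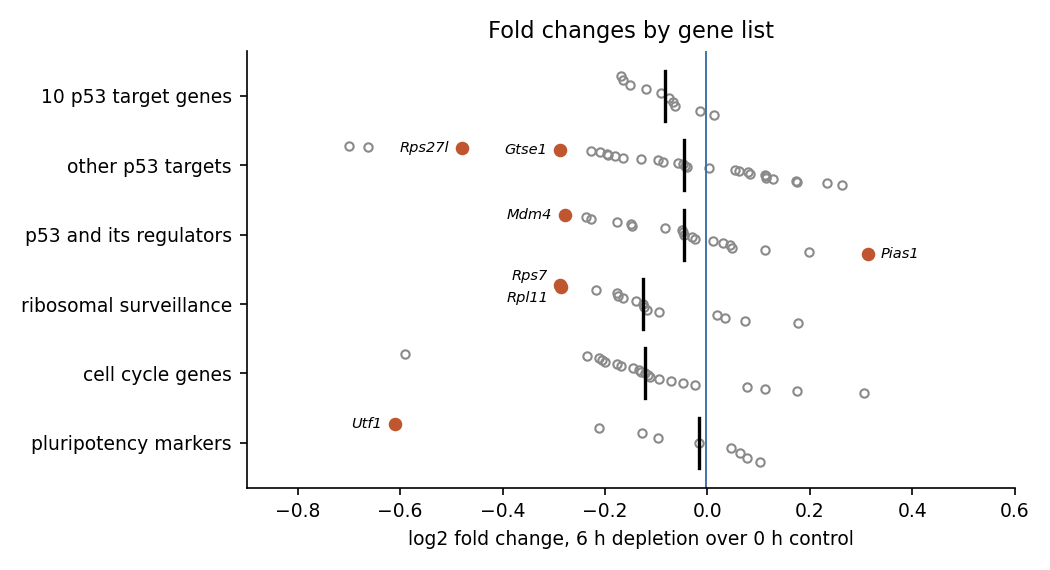
Log2 fold change of every tested gene of 6 lists, with filled points for genes at an adjusted p under 0.05 in edgeR, a black bar at each list's median and a vertical line at the median of all genes. The 10 p53 target genes and the cell cycle genes hold no filled point, and Pias1 is the only filled point above 0.

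Genes that an active p53 response lowers indirectly, through p21, gave 0 calls among 21 tested cell cycle genes, against 2.51% of all genes either way. At an unadjusted p under 0.05 in edgeR, 8 were lower and 2 were higher, against 908 lower and 1011 higher of all 11853 genes, and DESeq2 with its own size factors called 0 after adjustment. Of the 21, 17 were below 0, against 50.6% of all genes. Their median log2 fold change was -0.12. The lowest value was -0.59 for Aurkb, at 12.6 and 10.9 CPM in the controls against 7.06 and 8.54 CPM under IAA (adjusted p 0.158 in edgeR). Mcm5 had -0.20 and the smallest adjusted p of the 21 (0.0805 in edgeR). The cyclin-dependent kinase gene Cdk1 had -0.21 and the cyclin gene Ccna2 also -0.21 (adjusted p 0.172 and 0.228 in edgeR). The highest value was 0.31 for Bub1, a spindle checkpoint kinase gene (adjusted p 0.0983 in edgeR). Aurkb, Mcm5, Cdk1, Ccna2 and Bub1 were chosen for naming after their values were seen. With the recovered size factors 10 of the 21 were lower in edgeR and 0 in DESeq2, while with the replicate block 1 was higher and 1 lower, and with library totals or a mean count of at least 100 required 1 was lower.

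Most of the p53 targets lay slightly below other genes of their length, mostly by less than their own standard error. Fold change varied with gene length in these libraries, from a median of -0.06 on the log2 scale in the shortest of 10 equal length groups to 0.10 in the longest, and 8 of the 10 targets lay in the shorter 5 groups. Each target was set against the median of its own length group, which ranged from -0.08 to 0.02. The differences ranged from -0.15 for Zmat3 to 0.06 for Pmaip1, with a median of -0.04, and 8 of the 10 were below 0. Bax and Bbc3 were within 0.01 of their group's median. Only for Zmat3, Cdkn1a and Aen was the difference larger than the standard error of the gene's log2 fold change. Removing a smooth trend on length brought the median of the 10 to -0.07 and that of all genes to -0.03. The distance between these medians went from -0.08 to -0.04. Of the 10, 0 passed the threshold, and 1 was lower at an unadjusted p under 0.05 in edgeR, where 3 were before. The part of length in the fold changes was not otherwise tested.

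**Figure D4:**
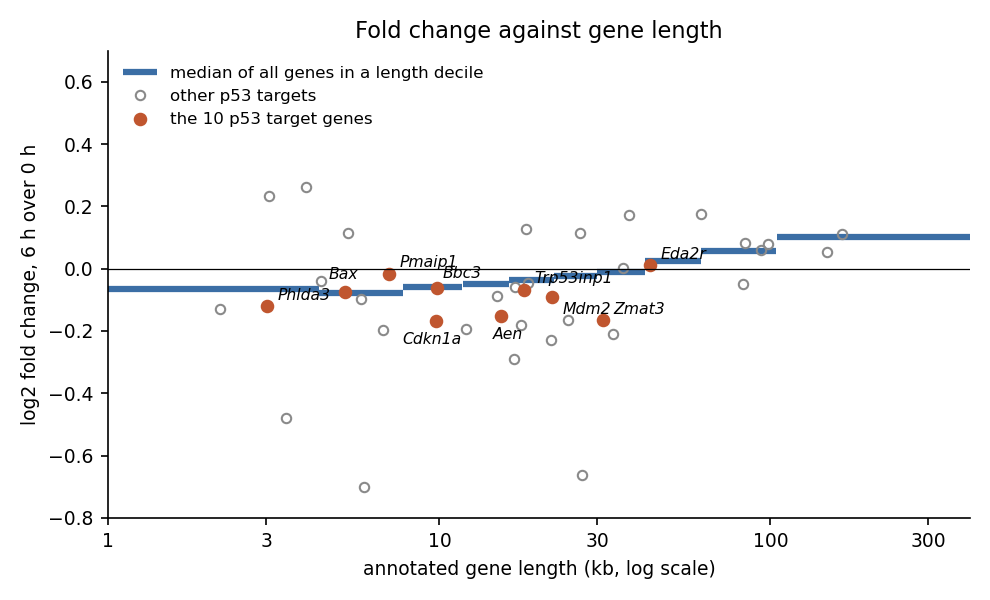
Log2 fold change against annotated gene length in kb (log axis) for the 10 p53 target genes (filled), the other p53 targets (open) and the median of all genes in each of 10 length groups (bars). The 10 genes lie from -0.15 to 0.06 away from the bars, with Zmat3 the farthest below.

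What the depth could show was limited but not coarse. The 10 genes had between 136 and 1791 counts in each library. Among the 5049 genes with a mean count in their range, 78 were called higher and 90 lower in edgeR. The smallest rise called was 0.21 on the log2 scale and the median rise called was 0.33. Some values above the smallest called rise, such as 0.26 for Btg2, were not called, so what was detectable differed between genes. The intervals cover counting error and the spread of 2 libraries per group, which the fit moderated toward the spread of other genes. They thus rest on more than each gene's own libraries. The size of the shift also depended on how libraries were scaled. With the recovered size factors the median over all genes was -0.11 and that over the 10 targets -0.19, while the distance between these medians, -0.08, was the same as with TMM. Over all settings tried, the highest upper end of a 95% interval was 1.35-fold, for Pmaip1 without depletion replicate 1.

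**Figure D5:**
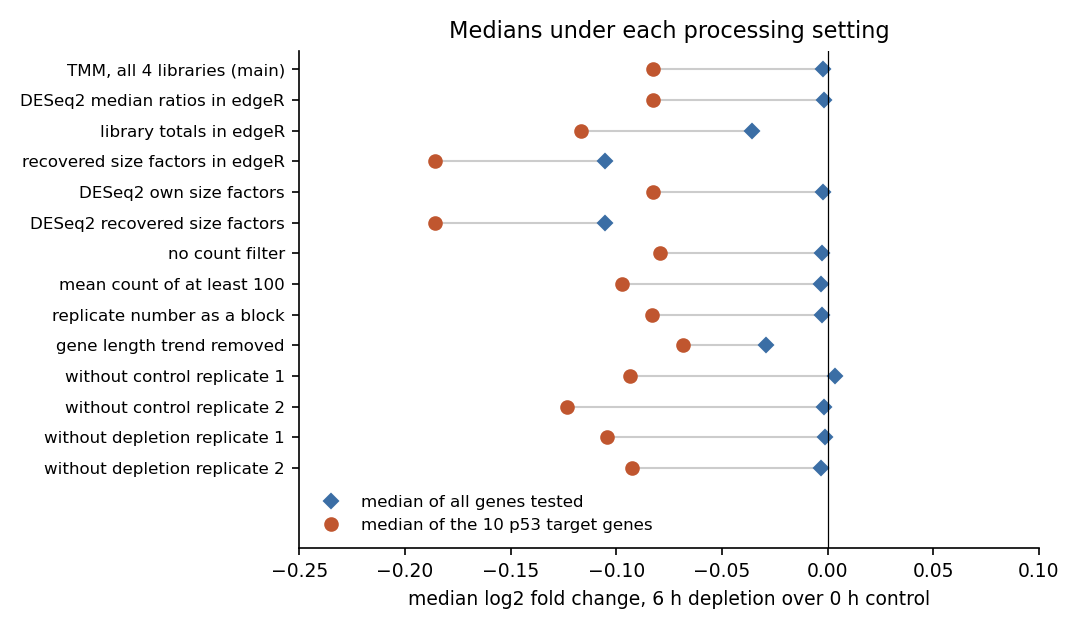
Median log2 fold change of the 10 p53 target genes (circles) and of all genes tested (diamonds) under each processing setting. The targets' median stays below that of all genes and below 0 in every setting shown, between -0.19 and -0.07.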

How the data were processed

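PRO-seq was measured in 4 libraries, grouped by their labels. Per the labels and the study's methods, the authors trimmed adapters with cutadapt 1.18, mapped reads to mm10 with Bowtie 1.2.2, kept uniquely placed reads and collapsed them by molecular identifier. The counts they deposited are whole numbers, one for each collapsed 3′ end on the gene's strand over CAGE-corrected genes, not normalized. The authors also deposited a mean normalized signal from DESeq2, which was used only to recover their size factors by regression on the counts (0.699 and 0.740 for controls, 1.32 and 1.24 for depletion). The methods describe 1 spike-in factor shared by the replicates of a condition, whereas the recovered factors differ within each condition, so they could not be traced to the spike-in and calls made with them are not known to reflect it. The comparison columns beside it (fold changes and p-values) were not used.

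Genes were filtered with filterByExpr (minimum count 10, minimum total 15), which removed 633, and scaled with TMM. The fit used condition alone and edgeR's quasi-likelihood test (glmQLFit, glmQLFTest; edgeR 4.0.16, R 4.3.3), two-sided, with Benjamini-Hochberg adjustment over 11853 genes. Calls are at an adjusted p under 0.05. Standard errors are those implied by the F statistic. The 95% intervals use the t distribution with the fit's total degrees of freedom, which include information shared across genes. The study's methods use DESeq2 with spike-in scaling, and DESeq2 1.42.0 was run as an alternative. Replicates differed by more than sampling noise (chi-square per degree of freedom 1.85 and 1.49). Positions are from GENCODE M21, which matched 12474 genes and lacks the corrected starts. Response elements were searched with Python 3.11.15. The scripts were tested on simulated data.

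The members and lists were chosen with earlier results of these data known. All 10 members were named, with genes of the other lists past the threshold and a fixed set of p53 pathway genes. The alternatives covered scaling, test, filter, a replicate block, gene length, the study's 2-fold threshold and leaving out each library.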

Additional observations from a re-analysis of the deposited data

How the results depend on the processing

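The count of 0 higher among the 10 p53 targets held in every setting tried. The count of lower targets was 3 with the recovered size factors in edgeR and 1 with the replicate block, and 0 to 1 when single libraries were left out (1 without control replicate 2). The targets' median log2 fold change of -0.08 moved to -0.12 with library totals and to -0.19 with the recovered size factors, in edgeR and in DESeq2, by the shift these scalings give all genes, and lay from -0.123 to -0.0924 when single libraries were left out. Over all genes, the 132 higher and 166 lower became 64 higher with library totals, 49 higher and 698 lower with the recovered size factors, 14 higher and 61 lower in DESeq2 with its own factors, 3 higher in DESeq2 with the recovered factors, 366 higher and 300 lower with the replicate block, and 52 higher once the length trend was removed. The cause was not tested for the test and the block. With a 2-fold threshold added, 0 were higher and 38 lower. Leaving out one library gave 20 (without depletion replicate 1) to 271 (without control replicate 2) higher and 76 to 227 lower genes, from the same libraries. A fit without one library leaves 1 in its group, which is assumed to vary like the others. Whether replicates with the same number belong together is not known. The differences between replicates 1 and 2 had a Pearson r of 0.07 between conditions across 9395 genes, which are not independent. A single correlation of this kind cannot decide it. No call reversed its direction. Depth limits the weakest targets most: Phlda3 had 136 counts in a control library.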
